A study of Homo sapiens with 2 samples.

Results

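Small nucleolar RNAs (snoRNAs) and small Cajal body RNAs (scaRNAs) were read out in PLC, a liver cancer cell line of human origin. They were chosen by name and by FPKM in these same libraries, as every locus whose name starts with SNORD, SNORA or SCARNA, has no other gene name joined to it and has a summed FPKM above 0 in at least 1 of the 2 libraries. FPKM is the number of fragments at a locus scaled by its length and by the fragments mapped in the library. Of 347 such names listed in either library, 6 met the rule, beside 24313 unjoined names of all kinds listed in both libraries. The 6 were SNORD17 and the scaRNAs SCARNA2, SCARNA7, SCARNA9, SCARNA9L and SCARNA12, and no SNORA name was among them. The other 341 names, 234 SNORD, 91 SNORA and 16 SCARNA, were listed at 0 wherever they were listed.

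PRSS35 is a secreted serine protease, and the study used this comparison to see which proteins that were scarcer in the medium under PRSS35 had kept their transcript level, in its search for substrates. It sequenced RNA from stable PLC cells carrying the empty vector (EV, labelled wild type) and from stable PLC cells overexpressing PRSS35, both made with lentivirus and puromycin selection and given no further treatment. With 1 library per condition there is no replicate check, no test and no p-value, and each difference below is one between 2 libraries. PRSS35 itself had an FPKM of 0.643 in EV and 1836 in PRSS35. Of 8 liver markers, 7 had an FPKM of at least 1 in both libraries, and the summed FPKM of 4 unjoined fibroblast markers was 0.730 in EV and 0.761 in PRSS35. Of the leukocyte markers, PTPRC and CD3E were listed at 0 in both, CD14 at 0 and 0.234, LYZ at 94.0 and 103.7, and CD68 only in a locus joined with MPDU1. About 31457693 fragments lay behind EV and 31541162 behind PRSS35, as estimated from single-exon genes.

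SnoRNAs guide the chemical modification of other RNAs by base pairing. The box C/D class, named SNORD, directs 2′-O-methylation through the methyltransferase fibrillarin, and the box H/ACA class, named SNORA, directs pseudouridylation through dyskerin. ScaRNAs carry the same kinds of boxes, gather in Cajal bodies and guide modification of the spliceosomal snRNAs. Most human members of these classes are cut out of introns of a host gene, and the mature RNAs lack a poly(A) tail. The selection step of these libraries, by poly(A) or by removal of ribosomal RNA, is not given in the sources used here.

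The sequences of the 5 members with the highest mean FPKM are shown because their length and their likeness bear on how the values can be read. They were read from GRCh37, the assembly of hg19, on the annotated strand, and capitals mark the C box letters TGATGA and the D box letters CTGA wherever they occur on that strand. SCARNA12 lies at chr12:7076500-7076769 on the minus strand, inside PHB2, and SCARNA2 at chr1:109642815-109643234 on the plus strand, in no host. SCARNA9 lies at chr11:93454680-93455032 on the plus strand, inside CEP295, SCARNA9L at chrX:20154184-20154531 on the minus strand, inside EIF1AX, and SNORD17 at chr20:17943353-17943589 on the minus strand, inside SNX5. SCARNA12 and SNORD17 are given whole, SCARNA2 from base 121 to base 420, its 3′ end, and SCARNA9 and SCARNA9L from base 1 to base 300.
SCARNA12: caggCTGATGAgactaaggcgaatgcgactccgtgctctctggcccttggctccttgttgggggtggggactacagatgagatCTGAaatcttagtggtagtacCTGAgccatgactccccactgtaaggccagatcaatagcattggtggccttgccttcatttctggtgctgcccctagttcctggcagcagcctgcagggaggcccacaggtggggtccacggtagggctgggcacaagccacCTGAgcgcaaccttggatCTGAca
SCARNA2: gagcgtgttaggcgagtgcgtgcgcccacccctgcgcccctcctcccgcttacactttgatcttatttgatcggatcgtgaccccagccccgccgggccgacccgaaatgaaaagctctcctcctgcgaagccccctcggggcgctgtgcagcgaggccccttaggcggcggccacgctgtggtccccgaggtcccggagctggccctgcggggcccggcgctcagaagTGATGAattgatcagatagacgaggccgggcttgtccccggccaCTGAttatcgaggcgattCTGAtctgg
SCARNA9: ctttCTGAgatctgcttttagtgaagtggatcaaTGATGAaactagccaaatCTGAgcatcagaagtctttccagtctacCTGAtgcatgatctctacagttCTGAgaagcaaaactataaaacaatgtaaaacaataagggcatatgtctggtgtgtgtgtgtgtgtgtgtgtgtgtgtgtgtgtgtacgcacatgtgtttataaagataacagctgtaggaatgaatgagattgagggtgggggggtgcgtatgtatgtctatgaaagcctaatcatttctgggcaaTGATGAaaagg
SCARNA9L: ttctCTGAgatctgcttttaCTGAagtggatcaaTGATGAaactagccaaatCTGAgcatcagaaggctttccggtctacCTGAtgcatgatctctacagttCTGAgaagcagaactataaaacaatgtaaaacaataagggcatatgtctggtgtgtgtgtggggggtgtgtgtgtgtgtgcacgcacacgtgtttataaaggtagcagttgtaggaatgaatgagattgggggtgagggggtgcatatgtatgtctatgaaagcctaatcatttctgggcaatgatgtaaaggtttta
SNORD17: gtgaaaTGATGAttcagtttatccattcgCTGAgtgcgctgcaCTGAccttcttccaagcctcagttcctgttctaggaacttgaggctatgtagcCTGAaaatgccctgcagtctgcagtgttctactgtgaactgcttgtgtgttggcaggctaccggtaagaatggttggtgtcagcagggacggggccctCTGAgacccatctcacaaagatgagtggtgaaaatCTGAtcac
The remaining RNA, SCARNA7, spans 330 bases at chr3:160232695-160233024 on the minus strand, inside KPNA4.

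Over their whole length, all 6 sequences held TGATGA, 1 time in 5 of them and 2 times in SCARNA9, and all 6 held a CTGA that began within 9 bases of the 3′ end. The letters TGATGA were in 6.95% of windows of 237 bases, the length of SNORD17, and in 12.03% of windows of 420 bases, the length of SCARNA2, over both strands of chromosome 20. CTGA is common at these lengths, in 71.3% to 88.8% of such windows. In SCARNA12 the TGATGA at position 6 overlaps the CTGA at position 5, counted from the 5′ end. A match describes letters and is not shown to be a working box. The GC content ran from 37.3% in SCARNA7 to 65.5% in SCARNA2. SCARNA9 and SCARNA9L aligned with 327 identical bases over 353 columns, an identity of 92.6%, and shared 59 stretches of 30 bases and 1 of 50 bases, so how fragments were divided between them is uncertain. No other pair of the 6 shared a stretch of 30 bases.

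The 3 classes differed in locus length, and a value above 0 appeared only among the longest loci. In EV the median locus length was 81 bases over 233 SNORD loci, 134 bases over 88 SNORA loci and 141 bases over 20 SCARNA loci, and in PRSS35 it was 80, 134 and 138 bases. The 6 RNAs above 0 were 237 to 420 bases long. Every SNORD, SNORA or SCARNA locus shorter than 237 bases was listed at 0, 331 loci in EV and 336 in PRSS35. Of the 10 loci of at least 237 bases in each library, 4 were above 0 in EV and 6 in PRSS35. SNORD17 was the only SNORD locus of that length, SNORA had 1 name of that length, SNORA53, and the other 8 were SCARNA.

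Listing at 0 below 237 bases was not limited to these 3 classes. That length is the one of SNORD17, the shortest of the 6, whose value rests on 1 fragment. Joined loci and loci under an assembled identifier were not counted. In EV, 0 of 2053 annotated loci shorter than 237 bases had a value above 0, and in PRSS35, 0 of 2065. The shortest annotated locus above 0 was SCARNA12 in EV and SNORD17 in PRSS35. Of all annotated loci between 237 and 420 bases, 8 of 46 were above 0 in EV and 10 of 47 in PRSS35. Loci without a name, which Cufflinks builds from reads and which carry no gene name here, did reach shorter lengths. They went down to 150 bases in EV and 153 in PRSS35. Some unnamed loci lay over names listed at 0, such as SNORD7. A snoRNA listed at 0 is therefore given here as listed at 0, and these tables do not say whether its RNA was in the cells.

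The members just inside and just outside the rule were of like length. SCARNA7 (330 bases) was above 0 by 1 fragment in PRSS35, and SCARNA10, also 330 bases long, was listed at 0 in both libraries. SNORA53 (250 bases), SCARNA6 (266 bases) and SCARNA5 (278 bases) were listed at 0 in both, on either side of SCARNA12 in length, and SNORA58 (236 bases), 1 base shorter than SNORD17, was listed at 0. In groups of snoRNAs with a known shared role or origin, every name with a locus of its own was listed at 0 there. These were the 65 names of the imprinted cluster at 15q11, 33 to 104 bases long, the 38 names of the imprinted cluster at 14q32, 69 to 104 bases long, the 10 names from GAS5 introns, the 8 names from SNHG1 introns, and 2 names for RNAs that take part in cleavage of the ribosomal RNA precursor. In at least 1 library, 11 names of the 15q11 group, 4 from GAS5, 4 from SNHG1 and 1 cleavage RNA stood in joined loci, some of them above 0, such as GAS5 with SNORD80 and SNORD81 at 97.7 FPKM in EV.

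Some snoRNA names were listed as part of a joined locus, where Cufflinks merged overlapping genes. There were 41 such loci in EV, which held 54 snoRNA or scaRNA names, and 37 in PRSS35, which held 49, of which 1 was also listed alone. Of these, 28 in EV and 25 in PRSS35 were above 0, with FPKM up to 11304 and 9684. Such a value belongs to the host and the small RNA together and was not used. NOP56, a core protein of the box C/D particle, was listed in this way together with the snoRNAs of its own introns, and DKC1, which encodes dyskerin, with SNORA36A and SNORA56.

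FPKM of these short loci is inflated, and by how much differs between them. Cufflinks divides by an effective length, the number of places at which a fragment can start in a transcript, and not by the whole length. Where the bounds that Cufflinks puts around an FPKM hold counting error only, they give the number of fragments behind it. Single-exon genes with whole fragment numbers showed that about 277 bases in EV and 280 bases in PRSS35 were taken off long transcripts. 1 fragment was worth 2.65 FPKM at SNORD17 and 1.25 FPKM at SCARNA12. At SCARNA7 it was worth 0.492 FPKM, at SCARNA9L 0.399, at SCARNA9 0.380 and at SCARNA2 0.226. Against 1 fragment spread over the whole locus, this is 19.8 times as much at SNORD17, 10.7 times at SCARNA12 and 2.99 times at SCARNA2. The effective lengths were 11.95 bases for SNORD17, 25.3 bases for SCARNA12, 64.4 bases for SCARNA7, 79.6 bases for SCARNA9L, 83.5 bases for SCARNA9 and 140.6 bases for SCARNA2.

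**Figure D1:**
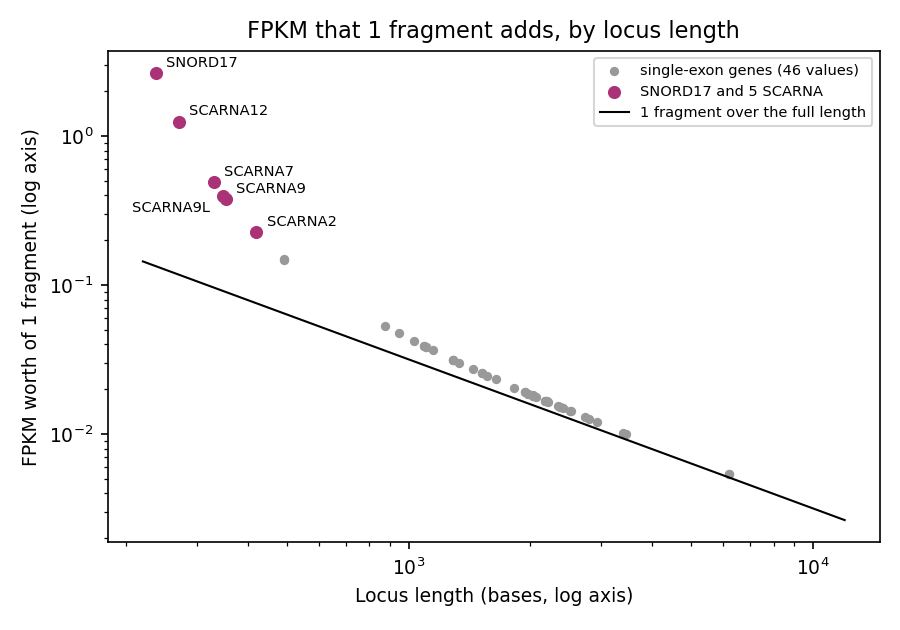
FPKM that 1 fragment adds against locus length, both on log axes, for SNORD17 and the 5 SCARNA (purple, mean over the libraries in which each was above 0) and for single-exon genes with whole fragment numbers (grey, 46 values from either library), with a line for 1 fragment over the full length. The shortest of the 6, SNORD17, stands farthest above the line at 2.65 FPKM per fragment, and SCARNA2 nearest to it at 0.226.

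The order of the levels depended on whether FPKM or fragments were compared. By FPKM, a level per effective length, SCARNA12 was first in both libraries with 45.8 in EV and 22.3 in PRSS35, and SCARNA2 was second. By fragments SCARNA2 came first, with 91 against 36 in EV and 35 against 18 in PRSS35. SNORD17 came next in PRSS35 by FPKM with 1 fragment, ahead of SCARNA9, which had 6. SCARNA12 ranked 2233 in EV and 3544 in PRSS35 by FPKM among all named loci, joined loci included, and SCARNA2 ranked 3664 and 5727. The median FPKM of the 5 SCARNA members was 4.50 in EV and 2.29 in PRSS35, and SNORD, with 1 member, was at 0 and 2.65. Of the fragments over all 6 RNAs, the scaRNAs held 144 of 144 in EV and 61 of 62 in PRSS35.

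SCARNA2, a guide for methylation of the U2 snRNA that is made from its own gene, had the most fragments and was the 1 member whose bounds did not overlap between the libraries. Its FPKM was 20.3 in EV (Cufflinks bounds 16.03 to 24.5) and 7.97 in PRSS35 (5.26 to 10.7). The value in PRSS35 was the lower. The log2 change, on the scale of log2(FPKM + 1), was -1.25. Of 13261 names with 1 locus and a value above 0 in both libraries, 10.5% were lower and 19.1% higher in PRSS35 with bounds that did not overlap. On the scale of log2(FPKM + 1), 106 (0.799%) were lower in this way by 2-fold or more. That scale shrinks differences at low FPKM, so the 0.799% is not a like share for SCARNA2. The ratio of fragments, 35 to 91, was 0.385 with an exact 95% interval of 0.253 to 0.574, which covers counting error only.

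SCARNA12, which lies inside PHB2, the gene of the mitochondrial protein prohibitin 2, had an FPKM of 45.8 in EV (30.6 to 61.0) and 22.3 in PRSS35 (11.8 to 32.9). It was lower in PRSS35 with bounds that overlapped, at a log2 change of -1.004. The 36 and 18 fragments behind it gave a ratio of 0.5 (exact 95% interval 0.267 to 0.904). Of 648 annotated names with 20 to 80 fragments on average, as worked out from the bounds, 31 (4.78%) had fragments lower by at least 1.9 times. On the scale of log2(FPKM + 1), 2 of the 648 (0.309%) were lower by 2-fold or more. That scale shrinks differences at low FPKM, and 1 fragment adds more FPKM at SCARNA12 than at longer loci. The 0.309% is therefore not a like share for SCARNA12.

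SCARNA9, another guide for U2 methylation, and its near copy SCARNA9L were lower in PRSS35 on few fragments. SCARNA9 had an FPKM of 4.50 in EV (1.89 to 7.11) and 2.29 in PRSS35 (0.421 to 4.16), from 12 and 6 fragments, a log2 change of -0.74. SCARNA9L had 1.98 in EV (0.209 to 3.74) and 0.402 in PRSS35 (0 to 1.21), from 5 fragments and 1 fragment, a log2 change of -1.09. The bounds of both overlapped between the libraries. Since their fragments may have been divided either way, the sum over the pair is the firmer value, 17 fragments in EV and 7 in PRSS35, a ratio of 0.412 whose exact 95% interval of 0.144 to 1.04 includes no change.

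SNORD17, a guide for methylation of the large ribosomal RNA, and SCARNA7, which guides methylation of the U1 snRNA, were above 0 in PRSS35 only. SNORD17 was listed at 0 in EV and at 2.65 (0 to 7.96) in PRSS35. SCARNA7 was listed at 0 in EV and at 0.492 (0 to 1.48) in PRSS35. Each value rests on 1 fragment, under a floor of 3 fragments in both libraries, so no fold is given, and both met the rule only through the library in which they were higher.

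By class, 3 of the 5 SCARNA members, SCARNA2, SCARNA12 and SCARNA9L, were lower in PRSS35 by 2-fold or more and 0 were higher. Of these, SCARNA9L had 5 fragments in EV and 1 in PRSS35. Of the 14935 names of any length above 0 in at least 1 library, 1.46% were lower and 1.44% higher. These calls are on log2(FPKM + 1), which shrinks differences at low FPKM. Of 25 other annotated loci of 200 to 499 bases, 5 were lower and 5 higher by 2-fold in fragments worked out from the bounds. All 4 SCARNA members above 0 in both libraries were lower in PRSS35, from -1.25 to -0.74 with a median log2 change of -1.04, and over all 5 the median was -1.004. With a mean FPKM of at least 1 required, 1.9% of names were lower and 1.89% higher. The median over the 9682 names with a mean FPKM of at least 1 was 0.06. The summed fragments of the 5 scaRNAs were 144 in EV and 61 in PRSS35, a ratio of 0.424 (exact 95% interval 0.309 to 0.575). SCARNA2 held 91 of the 144. Without SCARNA2 the sums were 53 and 26, a ratio of 0.491 (0.294 to 0.799). Both intervals cover counting error only and are no test of the class. The 1 SNORD member had too few fragments for a fold, and for SNORA there was nothing to compare. Fewer such RNAs per cell and a smaller share of cells that hold them cannot be told apart in bulk RNA.

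Most other names of like length with a value were also lower in PRSS35. Of 11 other names between 237 and 420 bases with a value, 9 were lower and 2 higher in PRSS35, with a median log2 change of -0.51 and a range of -0.84 to 0.57. On this scale 0 of the 11 were lower by 2-fold, although HIST1H4H had an FPKM of 1.85 in EV and 0.627 in PRSS35. RPPH1, the RNA of RNase P, had an FPKM of 43.0 in EV and 25.6 in PRSS35, a log2 change of -0.73 on 100 and 54 fragments. Of the 9 histone H4 genes among them, which share most of their coding sequence, 8 were lower. HIST2H4A had an FPKM of 39.5 in EV and 21.8 in PRSS35. HIST2H4B had 39.5 and 21.6, so the same fragments may be counted at more than 1 of these genes. TERC, the telomerase RNA, had 1.63 and 1.83, and 32 other names of small noncoding RNAs, RMRP among them, were listed at 0 in both.

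Among unnamed loci matched between the libraries, fragments worked out from the bounds were also fewer in PRSS35 at short lengths. The ratios and shares below therefore also hold any change in the width of the bounds. The median log2 ratio of fragments was -0.36 over 21 loci of 150 to 199 bases, -0.33 over 78 loci of 200 to 299 bases and -0.13 over 138 loci of 300 to 499 bases. Fragments were lower by 2-fold at 1 of the 21 loci and higher at 1. They were lower at 12 of the 78 loci and higher at 0, and lower at 18 of the 138 loci and higher at 2. Of 4242 annotated loci of 1000 bases or more, 293 were lower and 331 higher by 2-fold in fragments. Of 371 unnamed loci of that length, 18 were lower and 14 higher. The median was 0.07 over 371 unnamed loci of 1000 bases or more and 0.07 over 4242 annotated loci of that length. Over 25 annotated loci of 200 to 499 bases, with the scaRNAs left out, it was -0.05, with 5 loci lower and 5 higher by 2-fold in fragments. The part of locus length in the differences at the scaRNAs was not tested.

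One unnamed locus in each library lay over U3, the snoRNA SNORD3A, which acts in cleavage of the ribosomal RNA precursor and which no unjoined name covered. It had an FPKM of 12.6 (9.85 to 15.3) over 495 bases in EV and 6.90 (4.96 to 8.84) over 513 bases in PRSS35, from 85.4 and 50.5 fragments. The value was lower in PRSS35, as at the scaRNAs, and the bounds did not overlap. An unnamed locus over SNORD3B-1, another U3 copy, had 1.19 FPKM over 1206 bases in EV and 1.93 over 831 bases in PRSS35, from 33.99 and 32.7 fragments. Its fragments were thus nearly the same in number, while the assembled lengths differed. An unnamed locus over SNORD7 of 6130 bases in EV and 6164 bases in PRSS35 had 24.2 and 25.9 FPKM, from 357.9 and 416.0 fragments, and was not lower in PRSS35. Unnamed loci over SNORD116 copies, at 3.33 and 0.842 FPKM in EV and 1.07 FPKM in PRSS35, differed in extent between the libraries, and 1 over SNORD89, at 1.46 FPKM, was in EV only.

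The hosts of the scaRNAs that were lower in PRSS35 had log2 changes between -0.04 and 0.12. PHB2, the host of SCARNA12, had an FPKM of 469.8 in EV and 482.8 in PRSS35, a log2 change of 0.04. CEP295, a centrosomal protein gene that holds SCARNA9, had 0.434 and 0.559, and EIF1AX, a translation initiation factor gene that holds SCARNA9L, had 17.2 and 16.7. SNX5, a sorting nexin gene and the host of SNORD17, had 25.0 and 24.4. KPNA4, an importin gene and the host of SCARNA7, had 5.39 in EV and 2.04 in PRSS35, a log2 change of -1.07, while the 1 fragment of SCARNA7 was in PRSS35. The median over these 5 hosts was -0.03. It was 0.03 over the 110 hosts of any listed SNORD, SNORA or SCARNA name with a value in both libraries. Of the 110, 1 host was higher and 3 were lower by 2-fold, beside 122 higher and 116 lower of all 13314 names above 0 in both.

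For SCARNA12, SCARNA9 and SCARNA9L, fragments of the scaRNA and of unspliced host RNA cannot be told apart in these tables. SCARNA2 lies in no named host locus.

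Noncoding hosts, whose introns are the source of many snoRNAs, gave a median close to 0. Of 22 SNHG and GAS5 names, 9 were unjoined and above 0 in both libraries, and their median log2 change was 0.01. SNHG21 was higher by 2-fold, from an FPKM of 3.47 in EV to 9.61 in PRSS35 (log2 change 1.25), and SNHG15 was the lowest, with 94.5 and 73.1 (-0.37). SNHG1 and GAS5 themselves were listed only in joined loci with their snoRNAs.

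Of 30 genes for proteins that build, carry or process these RNAs, 26 had an unjoined value in both libraries. Of the 26, 0 were higher or lower by 2-fold. Of all 13314 names above 0 in both libraries, 122 were higher and 116 lower by 2-fold, so a list of this size would hold few such calls. The median log2 change of the 26 was 0.02, with 14 higher and 12 lower. The bounds of 10 of them did not overlap between the libraries. Such bounds were found at 10.5% of all names downward and 19.1% upward. FBL, which encodes fibrillarin, had an FPKM of 592.1 in EV and 596.9 in PRSS35. NOP58, its partner in the box C/D core, was lower at 14.3 and 11.4 (-0.30), and NHP2L1, the protein that binds the box C/D fold first, had 135.0 and 131.1. In the H/ACA core, NHP2 had 431.2 and 421.9, NOP10 had 404.2 and 449.5, and GAR1 had 15.1 and 15.3.

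Of the 5 Cajal body genes with a value, 3 were higher and 2 lower in PRSS35. COIL, which encodes the scaffold protein coilin, had 3.79 in EV and 4.30 in PRSS35, and WRAP53, whose protein brings scaRNAs to Cajal bodies, had 95.5 and 89.1. The ends of the range were both in RNA processing and assembly. NAF1, an assembly factor of H/ACA particles, was at 3.30 and 4.68 (0.40), and DBR1, the enzyme that opens intron lariats and so frees intronic snoRNAs, was at 3.66 and 2.47 (-0.42). ZNHIT3, an assembly factor of box C/D particles, was at 23.8 in EV and listed at 0 in PRSS35 under an assembled locus, and DKC1, NOP56 and SMN1 were joined and are left out of these counts.

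**Figure D2:**
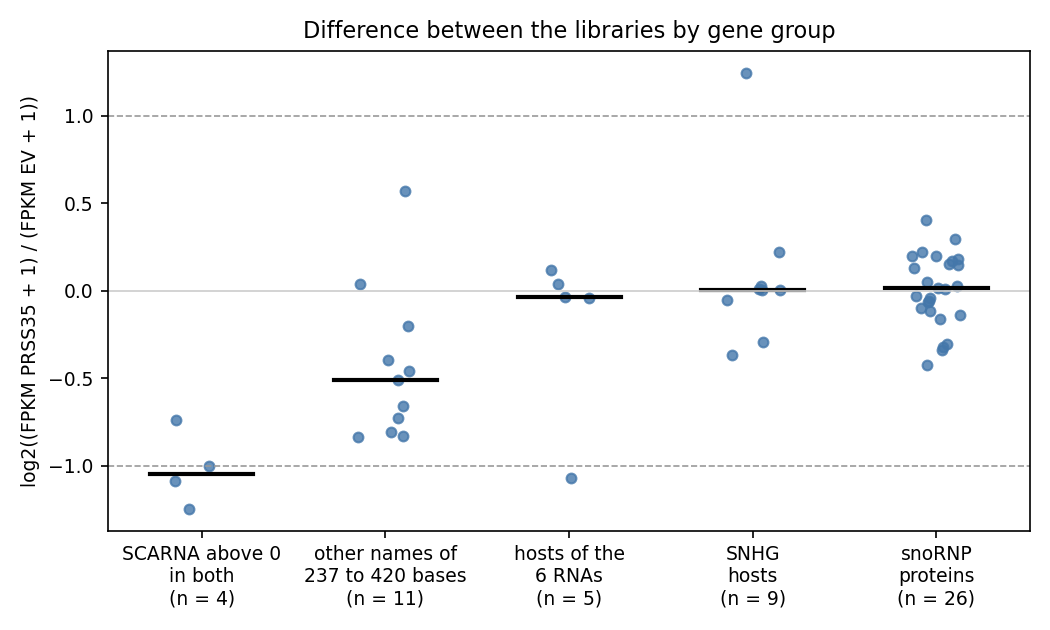
log2((FPKM in PRSS35 + 1) / (FPKM in EV + 1)) by gene group, with 1 point per gene, black bars for medians, dashed lines at 2-fold and sideways spread for legibility only. The 4 SCARNA above 0 in both libraries lie between -1.25 and -0.74 and the 11 other names of the same length between -0.84 and 0.57, while the median of the hosts of the 6 RNAs is -0.03 and that of the snoRNP proteins 0.02.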

How the data were processed

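RNA of PLC cells with EV or PRSS35 (1 library each) was prepared by the authors with an NEBNext Ultra RNA kit and sequenced on a HiSeq2500. The submitters' processing notes name TopHat2 2.1.0, Cuffdiff 2.2.1 and the builds hg19 and dm6, and the coordinates are those of hg19. The values deposited are FPKM per locus with lower and upper bounds. The Cufflinks options and annotation release are not given in the sources used here.

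Starts were read as 0-based and are printed 1-based. Loci on alternate contigs were left out, FPKM was summed per name, and names were matched between libraries. Each change is log2((PRSS35 + 1) / (EV + 1)) in FPKM, called at 2-fold, and no model was fitted. Fragments were worked out from the bounds, taken to lie 2 standard errors of a Poisson count from the FPKM. They were rounded for the exact (Clopper-Pearson) intervals of ratios, which cover counting error only. The bounds can be wider than that. FBL, at 592.1 FPKM in EV and 596.9 in PRSS35, had bounds of 565.9 to 618.2 and 587.5 to 606.3. Its identifier was assembled in EV only. At such loci the number worked out is not a fragment count. Depth came from a robust line through single-exon genes of at least 500 bases (20 loci in EV, 24 loci in PRSS35) whose fragments were within 0.01 of a whole number, which gave 31457693 and 31541162 fragments. A host is a named locus that holds the whole of a small RNA. Members, lists and lengths compared were chosen with earlier results of these data known. The rule for naming took the 5 highest members of each class and the 3 largest changes each way, with the listed snoRNA groups, comparator RNAs, hosts and proteins. The 11 names of like length, the unnamed loci and the hosts of all listed names were added after values had been seen. Alternatives were pseudocounts of 0.1 and 5 FPKM, 2 scalings by summed FPKM, centring on the median, a 1.5-fold threshold, the highest locus per name, loci of at least 100 bases, and filters on members. The calling step was run on simulated Poisson counts with changes larger than 2-fold. That run does not show how 2-fold calls behave on few fragments. GENCODE v44lift37, scipy 1.17.1, pandas 2.3.3, numpy 2.4.6, matplotlib 3.10.9 and Python 3.11.15 were used.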

Additional observations from a re-analysis of the deposited data

How the results depend on the processing

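The number of SCARNA members changed by 2-fold, in either direction, stayed between 2 and 4 under every alternative but 2. With a pseudocount of 0.1 FPKM, 3 were lower and 1 was higher, and the higher one was SCARNA7, on 1 fragment. The number was 0 when 5 FPKM was added before the log, and 0 when each FPKM was scaled to the sum of all loci. That sum was 2469030 in EV and 1508530 in PRSS35, and the scaling moved the median log2 change of all names with a mean FPKM of at least 1 from 0.06 to 0.69. It moved the median of the snoRNP protein genes to 0.67, that of the hosts to 0.64 and SCARNA2 to -0.60. Relative to the shifted median, SCARNA2 was at -1.29, SCARNA12 at -1.01, SCARNA9 at -0.90 and SCARNA9L at -1.54, and 3 of the 4 were again lower by 2-fold. The SNORD count, which rests on 1 fragment in the library that brought SNORD17 into the set, went from 1 to 0 with a pseudocount of 5 FPKM. The median FPKM of the SCARNA members above 0 in both libraries was 12.4 in EV and 5.13 in PRSS35, as SCARNA7 then drops out. That filter left no SNORD member. No direction reversed under any alternative run for the 4 scaRNAs above 0 in both libraries or for the class medians of SCARNA. No paired analysis was possible because EV and PRSS35 are 1 library each. Depth limits 4 of the 6 RNAs, which had 12 fragments or fewer in each library, and variation between cultures was not measured.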
